A study of Mus musculus with 11 samples.

Results

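The 10 genes described here are 6 ligands of the epidermal growth factor (EGF) family (Egf, Hbegf, Areg, Tgfa, Ereg and Btc) and the 4 receptors of the same family (Egfr, Erbb2, Erbb3 and Erbb4). They were chosen by symbol, 10 of the 28692 genes counted, and each symbol was found once. Their levels were followed across tubular segments, podocytes, endothelial cells, stroma and immune cells of adult mouse kidneys. The question was in which cells each ligand and receptor was found, and how far its level in those cells differed between control kidneys and kidneys after ischemic or obstructive injury.

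Single-cell RNA sequencing had been carried out on 11 kidney suspensions. The control group held 5 libraries of adult, uninjured kidneys, titled Ctrl, N1, N2, AN1 and AN2, which the labels place in 3 batches. Unilateral ischemia-reperfusion (UIR, in which the vessels of 1 kidney are clamped and released) was represented by 3 libraries, titled UIR, UIR1 and UIR2, and unilateral ureteral obstruction (UUO, in which the ureter of 1 kidney is tied off for good) by 3, titled UUO, UUO1 and UUO2. Per the study's methods the animals were male C57Bl/6 mice, the injured left kidneys were taken several weeks after surgery, and the controls were naive rather than sham-operated. No batch is given for the injured libraries, so batch and injury cannot be told apart. The study's methods give as many mice as there are libraries in each group, but no label ties a library to a mouse, and p-values measure the spread between these libraries.

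Control libraries held 91920461 to 110914244 unique molecular identifiers (UMIs, each standing for 1 captured RNA molecule), UIR libraries 82522753 to 117043590 and UUO libraries 49503312 to 60918546. After filtering, 40575 cells were kept, 1858 to 2514 in each control library, 4009 to 7443 in each UIR library and 3799 to 5283 in each UUO library. Barcodes with over 30% mitochondrial UMIs were left out. They made up 57.1% to 78.9% of those called in control, against 23.8% to 37.2% after UIR and 3.15% to 7.99% after UUO. Across libraries 210 cell barcodes recurred. Cells were clustered and clusters were named from fixed markers. The loop of Henle class held 263 control, 1363 UIR and 824 UUO cells, the distal tubule class 253, 331 and 213. Most injured distal tubule cells (298 in UIR and 204 in UUO) lay in 1 cluster, cluster 03, whose marker score for distal tubule exceeded that for connecting tubule by 0.0197, short of the limit of 0.02 set for other clusters. It was named under an exception made, with the marker tables in view, for these neighbouring segments. Without it, no injured library would hold 20 distal tubule cells and no distal tubule comparison with control could be made. Proximal tubule cells numbered 6685 in control, 1882 in UIR and 101 in UUO, and connecting tubule and principal cells were too few in UUO (17 and 14) to be compared. Levels are given in CPM, a gene's UMIs per 1000000 UMIs of all cells of a class in 1 library, for libraries with at least 20 cells of that class. Folds, their standard errors (SE) and adjusted p-values are from 1 edgeR quasi-likelihood fit per class over all genes, and a gene was called at an adjusted p under 0.05.

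Ligands of this family are made as membrane-bound precursors, which proteases of the ADAM type release from the cell surface. They bind EGFR, ERBB3 or ERBB4, which act in pairs with each other or with ERBB2, a partner with no known ligand of its own, and signal largely through RAS and ERK. In the kidney, Egf is known as a gene of the thick ascending limb and the early distal tubule, from where the peptide enters the urine, and signalling through EGFR is known for its part in tubular repair.

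Over all classes, 57 combinations of a member and a class could be tested between UIR and control, of which 9 were lower and 6 higher in UIR. Among all genes 5.35% of such tests were lower and 6.27% higher. Between UUO and control 8 of 48 combinations were lower and 12 higher, against 7.55% and 7.81% over all genes. Of the higher ones, 3 in UIR and 4 in UUO were members that in distal tubule passed the filter on low counts only through the injured libraries. Between UUO and UIR 3 of 51 were lower and 1 was higher, against 1.09% and 0.813%. Of the lower calls against control, Egf gave 7 of the 9 in UIR and 6 of the 8 in UUO. Without UIR1, without UUO and without UUO1 the lower calls between UUO and UIR fell from 3 to 1, and the higher call was lost without 7 of the libraries. The remaining members were below the filter on low counts in the other classes, and Ereg was tested in none.

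**Figure D1:**
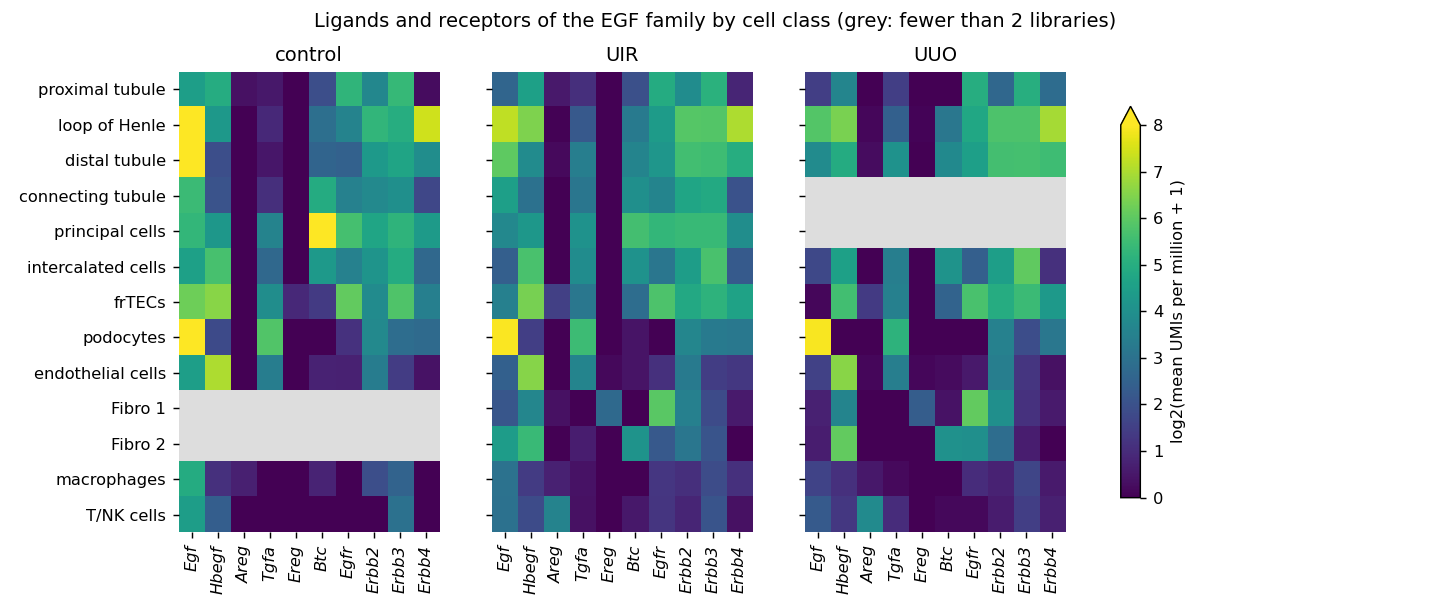
Mean level of each member in each cell class, as log2 of the mean CPM plus 1 over libraries, for control, UIR and UUO (colour scale from 0 to 8, higher values in the same yellow; grey marks fewer than 2 libraries). Egf in loop of Henle and distal tubule cells was bright in control and darker in both injuries, and Btc in principal cells was bright in control and darker in UIR (UUO is grey there), whereas Egf in podocytes was bright in all 3 groups.

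Egf (chr3:129677565-129755316, minus strand, mm10) encodes the prepro-EGF precursor of the distal nephron. Its sequence before the start is shown because Egf is the member on which most results turn. The 250 bases before the start that RefSeq gives (GRCm38.p6, chr3:129755323-129755572, minus strand, printed 5′ to 3′) held none of the 4 motifs searched on both strands, so no letter is capitalised. RefSeq lists a second Egf promoter, which is not printed.
Egf: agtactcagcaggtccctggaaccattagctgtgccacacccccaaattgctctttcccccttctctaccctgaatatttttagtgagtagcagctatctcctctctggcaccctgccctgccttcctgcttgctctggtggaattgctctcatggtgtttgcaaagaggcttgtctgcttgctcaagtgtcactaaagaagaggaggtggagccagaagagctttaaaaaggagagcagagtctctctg
The motifs were the TATA box (TATAAA), found in 12.4% of 32851 such windows, the cAMP response element (TGACGTCA), in 1.55%, the AP-1 site (TGANTCA), in 6.75%, and the GC box (GGGCGG), in 32.7%. A missing match says only that these letters are not in this window.

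In loop of Henle cells, Egf was at 8805, 8257, 8338, 6155 and 6095 CPM in Ctrl, N1, N2, AN1 and AN2, a mean of 7529.8 ± 1299.8 (SD, n = 5). The UIR libraries stood at 146, 194 and 105 (148 ± 44.6, n = 3) and the UUO libraries at 15.5, 40.9 and 114 (56.6 ± 50.9, n = 3). Every injured library was far below every control library, in each of the 3 control batches. The fitted log2 fold change was -5.88 in UIR (SE 0.43, adjusted p = 3.457e-10) and -7.34 in UUO (SE 0.46, adjusted p = 1.922e-11), that is 59.1-fold and 161.8-fold lower. UUO was also lower than UIR, by -1.45 on the log2 scale (SE 0.38, adjusted p = 0.03455), although the libraries overlapped. That last call was lost without UIR1 (-1.20), without UUO (-0.99), without UUO1 (-1.24) and without N1 (-1.46), with adjusted p-values up to 0.1704 among these, and in 7 other alternatives, among them DESeq2 (adjusted p = 0.2045). Without UUO2, the highest UUO library, it was -2.39, and UUO against control was -8.27.

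The distal tubule class, which carries the thiazide-sensitive transporter Slc12a3, showed the same order at a lower level. Egf stood at 2577, 1355, 1445, 2123 and 1487 CPM in the controls (1797 ± 532), at 88.6, 60.4 and 42.1 in UIR (63.7 ± 23.4) and at 6.16, 10.3 and 24.5 in UUO (13.6 ± 9.61). No group overlapped another. The log2 fold change was -5.15 in UIR (SE 0.29, adjusted p = 3.209e-13), -7.46 in UUO (SE 0.35, adjusted p = 2.052e-15) and -2.32 in UUO against UIR (SE 0.35, adjusted p = 8.602e-05). Without UUO2 the UUO values were -8.14 and -3.00 (against control and UIR). The level was 111.5 times that expected from free RNA in control, 21.4 times in UIR and 14.2 times in UUO. Against the Egf expected had all Umod and Slc12a1 UMIs of the same cells come from free RNA, in the ratio of the empty droplets, it was 3.75, 0.935 and 0.515 times as high.

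**Figure D2:**
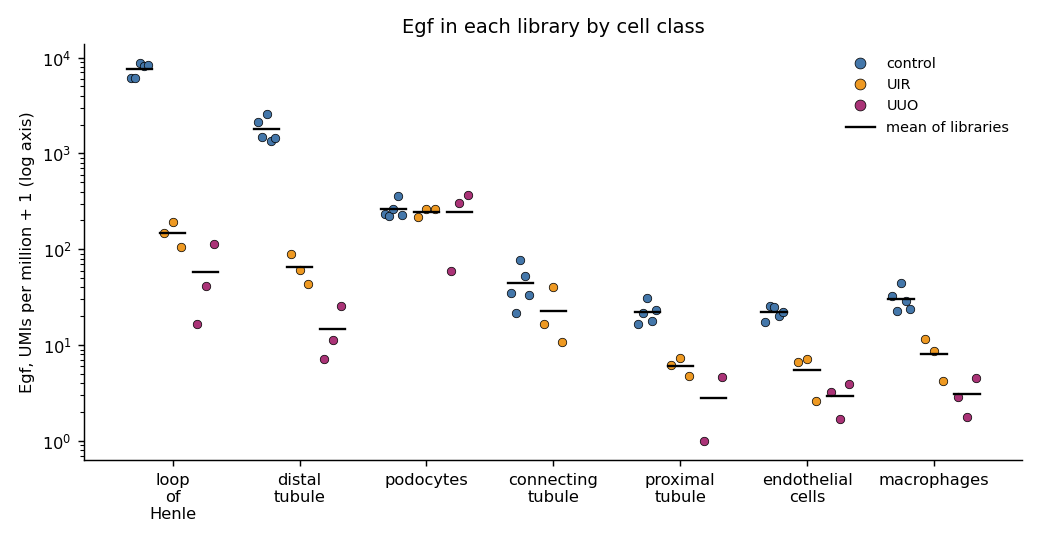
Egf in CPM plus 1 (log axis) in each library (points) and the mean of libraries (lines) for 7 cell classes. The loop of Henle fell from 6095 to 8805 in control to 105 to 194 in UIR and 15.5 to 114 in UUO, while podocytes stayed between 215 and 367 in all libraries but 1.

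Fewer loop of Henle cells also held any Egf UMI. With each cell thinned to 1000 UMIs, 86.1% ± 5.88 of control cells had one (78.7% to 94.5% over 5 libraries), 9.32% ± 1.85 of UIR cells (7.99% to 11.4%) and 3.18% ± 1.54 of UUO cells (1.72% to 4.79%). The differences of -76.7 and -82.9 percentage points each had an exact two-sided permutation p of 0.0179, the smallest that 5 against 3 libraries allow. Without thinning the shares were 91.3%, 36.3% and 22.4%. In proximal tubule cells, where Egf was at the level of free RNA (below), 3.19% ± 1.35 of thinned cells held one in control and 0.725% ± 0.197 in UIR. The Egf level of loop of Henle cells was 422 times that expected from free RNA in control, 42.3 times in UIR and 55.8 times in UUO.

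The loop of Henle and distal tubule classes were not made of the same clusters in each group. Most control loop cells (253 of 263) lay in cluster 10, led by Egf, Wfdc15b and Ppp1r1a, with 78 UIR and 8 UUO cells. There Egf stood at 7629 to 10419 CPM in control and at 2313, 2553 and 2012 in UIR. The 8 UUO cells stood at 241 (2 cells of UUO), 2430 (2 of UUO1) and 5913 (4 of UUO2), and those 4 cells gave 277 of the 369 Egf UMIs of UUO2 in loop of Henle. Most UIR cells lay in cluster 01, led by Slc12a1, Umod and Sostdc1, where Egf stood at 105, 179 and 109.6 in UIR and 31.1, 78.3 and 69.0 in UUO while Umod, the uromodulin gene, was at 9304 to 10966. In cluster 02, led by Cxcl5, Psca and Mmp7 and without control cells, Egf was between 6.62 and 16.02. Egf was kept out of the genes used for clustering, but levels within clusters were not tested, and these values are a description. In the distal tubule, all 253 control cells lay in cluster 11, where the UIR libraries were at 553, 418 and 449, and most injured cells in cluster 03, where UIR stood at 47.0, 20.1 and 24.0 and UUO at 6.16, 5.21 and 10.7. Cluster 03 is the one named under the exception above. With cells named one by one, the log2 fold change was -4.67 for Egf in distal tubule, UIR against control, and -7.56 for Egf in distal tubule, UUO against control, both called. With cells of up to 50% mitochondrial UMIs clustered anew, when only the cluster with the control cells kept the distal name, the value in UIR was -1.29 (adjusted p = 6.175e-07).

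The markers that named the classes moved as well. All 6 loop of Henle markers were detected in every group, but Slc12a1, the NKCC2 transporter, was at 7690 CPM in the pooled control cells, 3849 in UIR and 1662 in UUO, Umod at 12040, 8788 and 5646, and Tmem207 at 119.6, 16.6 and 2.58. Of the 3 distal markers, Slc12a3 was at 3801, 1509 and 452, and Pvalb, which encodes parvalbumin, at 637, 15.6 and 2.93. The part of these shifts in the Egf result was not tested.

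**Figure D3:**
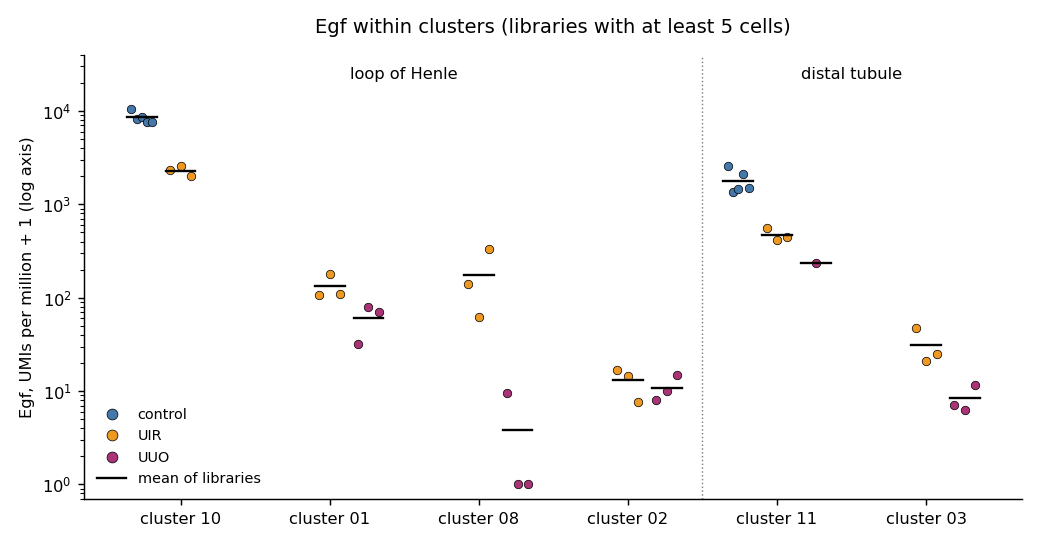
Egf in CPM plus 1 (log axis) in each library with at least 5 cells of a cluster (points), with the mean of libraries (lines), for 4 loop of Henle clusters and 2 distal tubule clusters. Control cells were plotted only in clusters 10 and 11, where UIR cells were lower but above the UIR cells of every other cluster of their class.

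In podocytes, Egf was present in all groups. It stood at 264, 357, 227, 233 and 224 CPM in the controls (261 ± 56.2), at 215, 261 and 261 in UIR and at 58.7, 302 and 367 in UUO, where the lowest value came from 21 cells. The groups overlapped. The log2 fold change was -0.05 in UIR (95% interval -0.38 to 0.29, adjusted p = 0.9977) and 0.25 in UUO (-0.14 to 0.63, adjusted p = 0.654). This level was 6.35 times that expected from free RNA in control podocytes, 21.3 times in UIR and 70.8 times in UUO. The podocyte gene Nphs1, which encodes nephrin, was at 2434 CPM in pooled control podocytes, while Umod in the same cells was between 10.7 and 127 in the libraries of all groups. After thinning to 1000 UMIs, 21.3% of control podocytes and 17.7% of UIR podocytes held an Egf UMI (exact permutation p = 0.304), as did 24.2% in the 2 UUO libraries with enough cells (exact permutation p = 0.381).

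The order of the classes in control was loop of Henle, distal tubule, podocytes and then frTECs (failed repair tubular epithelial cells) at 74.7 ± 103.6, connecting tubule at 43.1 ± 21.7, principal cells at 38.2 ± 45.5, macrophages at 29.6 ± 8.99, Fibro 3, a fibroblast class, at 27.0 ± 4.12 in 2 libraries, intercalated cells at 22.5 ± 16.8, proximal tubule at 21.2 ± 5.73, endothelial cells at 21.2 ± 3.58 and T/NK cells at 21.01 ± 29.5. From frTECs downward, neighbours in this order overlapped. Among these classes Egf was called lower in frTECs, macrophages, endothelial cells and intercalated cells in both injuries and in proximal tubule in UIR, but in neither injury in T/NK cells (-1.62 in UIR, adjusted p = 0.543, and -2.55 in UUO, adjusted p = 0.179) and not in principal cells in UIR (-1.23, adjusted p = 0.346). In proximal tubule the log2 fold change was -1.996 in UIR (SE 0.24), in macrophages -2.18 (SE 0.46) in UIR and -3.93 (SE 0.52) in UUO (-4.675 without UUO2), in endothelial cells -2.26 (SE 0.39, not called with doublets kept) and -3.54 (SE 0.42), and in intercalated cells -2.61 (SE 0.50) and -3.60 (SE 0.63). Empty droplets of the control libraries held Egf at 138 to 378 CPM, those of UIR libraries at 43.6 to 77.3 and those of UUO libraries at 5.30 to 39.4. The control level was 1.09 times that expected from free RNA in proximal tubule, 0.94 times in macrophages, 0.50 times in endothelial cells and 1.27 times in intercalated cells, so these calls were measured at the level of free RNA. With that free RNA subtracted, the lower calls over all members and classes numbered 4 in UIR and 4 in UUO.

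In frTECs, AN2 alone was at 230 CPM and the other controls at 14.3 to 31.6. Egf was called lower in UIR (-3.33, SE 0.84, adjusted p = 0.0348), but not without AN2 (-1.46, adjusted p = 0.382), without UIR1 (-2.92), without UIR2 (-2.81) or without UUO (-3.30). The 303 UUO cells held 1 Egf UMI, which made control 482.5 times higher by counting (95% interval 84.6 to 19250). AN2 gave 81 of the 97 control UMIs, and without it control was 121.6 times higher (18.9 to 5101). The call had adjusted p = 0.00465, 0.0192 without AN2 and 0.0525 with cells named one by one. Control frTECs lay mostly in cluster 18 (64 of 115), led by Fst, Aqp1 and Bst1, with 21 in cluster 15, led by Slc14a2 and Bst1. The class is named after its markers, and the name does not mean that these control cells had failed to repair. UIR frTECs lay mostly in cluster 07 (305 of 712), led by Ubd, C3 and Havcr1, and cluster 12 (182), led by Ankrd1, Wnt16 and Tnc. Of the markers of the class, Vcam1 was at 59.8 CPM in the pooled control cells, 578 in UIR and 605 in UUO, and Cryab at 5084, 1826 and 1434. The frTEC comparisons thus set classes of different makeup against each other. UUO frTECs were spread over clusters 07, 12, 15 and 22 (81, 77, 66 and 54 of 303). Cluster 22, led by Aldh1a3, Spink8 and Aqp4, had principal cells as its next nearest class and a median UMI count 6.66 times that of its libraries. A cluster led by the same genes stayed unnamed at a mitochondrial limit of 50% and at resolution 2 and was named principal cells with doublets kept. The estimated share of free RNA in frTECs was 4.78% to 32.0% in control, 54.7% to 92.1% in UIR and 43.5% to 49.99% in UUO. That estimate counts proximal tubule markers as free RNA, and cluster 07 had proximal tubule as its next nearest class. RNA made by the frTECs themselves may thus be counted in it, and the share is not a measure of free RNA alone. The part of cluster makeup and of free RNA in the frTEC results was not tested. The call in UIR was also lost with DESeq2 (-2.95), at resolution 2 (-1.47) and with cells named one by one (-1.19). Without UIR the UIR value was -4.21. In macrophages UUO was below UIR (-1.75, SE 0.45, adjusted p = 0.0318), a call lost without UIR (-1.49), UIR1 (-1.56), UUO (-1.73) or UUO1 (-1.27), with only these groups fitted (-1.775), at a mitochondrial limit of 15% (-1.07) and with cells of at least 1000 UMIs (-1.04), and -2.485 without UUO2. In connecting tubule the UIR libraries stood at 15.6, 39.6 and 9.78 against 20.5 to 76.6 in control, which did not pass the test (log2 fold change -1.19, adjusted p = 0.062), but did without UIR1 (-1.93), without AN2 (-1.36), with no filter (-1.22), with cells of at least 1000 UMIs (-2.005), at resolution 2 (-2.085), at a mitochondrial limit of 50% (-2.88) and with cells named one by one (-3.50).

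Of all Egf UMIs in cells, loop of Henle held 66.5% in control, 72.7% in UIR and 61.7% in UUO. The distal tubule held 23.1%, 6.68% and 5.31%, and podocytes 2.81%, 9.87% and 19.98%. Over all cells of a library, Egf was at 239 to 431 CPM in control, 38.2 to 52.7 in UIR and 4.499 to 24.5 in UUO.

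Hbegf encodes heparin-binding EGF-like growth factor, a ligand that binds EGFR and ERBB4. It rose in loop of Henle. The controls stood at 21.1, 13.9, 18.3, 11.1 and 26.0 CPM, the UIR libraries at 83.7, 86.3 and 87.2 and the UUO libraries at 77.0, 88.9 and 84.6. Control libraries did not overlap either injured group, whereas the injured groups overlapped each other. The log2 fold change was 1.959 in UIR (SE 0.20, adjusted p = 4.385e-08) and 1.91 in UUO (SE 0.20, adjusted p = 4.603e-08). Within cluster 10, which held most control cells, Hbegf was at 13.9 to 20.9 in control and at 4.57, 18.5 and 24.7 in UIR. In cluster 01 it was between 55.3 and 77.3 and in cluster 02 between 88.1 and 155.9 in the injured libraries.

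In distal tubule the controls held Hbegf at 1.19, 0, 0, 2.92 and 9.78 CPM, UIR at 10.8, 16.7 and 13.4 and UUO at 37.7, 32.5 and 18.7. The order was control, UIR and UUO without overlap. The log2 fold change was 1.80 in UIR (SE 0.565) and 2.88 in UUO (SE 0.50). Hbegf passed the filter on low counts there only through the injured libraries. A level above most controls was thus a condition of its being tested, and no p against control is given. The call in UIR was lost without Ctrl (1.46), with cells named one by one (1.20) and at a mitochondrial limit of 50% (1.11). Without AN2, the control with the highest value, the UIR and UUO values were 3.35 and 4.42. UUO exceeded UIR by 1.08 (SE 0.32, adjusted p = 0.0468), which was lost on leaving out UIR, UIR1, UIR2, UUO, UUO1, Ctrl or AN1, with log2 fold changes of 0.87 to 1.24. In intercalated cells, Hbegf was at 24.5 to 85.9 in control and at 22.1, 21.04 and 24.5 in UUO (-1.48, SE 0.42, adjusted p = 0.0114), a call lost without N2 (-1.205, adjusted p = 0.051), with cells named one by one (-1.197) and at the 50% limit (-0.997). Intercalated cells lay mostly in cluster 06 in control (147, with 59 in cluster 05 and 41 in cluster 21) and in cluster 05 in UUO (157, with 38 and 4 in the others). Cluster 05 is led by Aqp6, Atp6v1g3 and Dmrt2. The part of this shift in the intercalated cell results was not tested.

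Endothelial cells carried Hbegf in all groups, at 106 to 152 CPM in control, 83.7 to 100.3 in UIR and 73.2 to 125.5 in UUO. The log2 fold changes of -0.49 (adjusted p = 0.197) and -0.51 (adjusted p = 0.0557) did not pass the test, although the second did without UUO2 (-0.77) and without Ctrl (-0.58). Proximal tubule, at 22.9 to 46.6 in control and 19.5 to 26.9 in UIR, held 61.3% of the Hbegf UMIs of control kidneys, endothelial cells 21.01%. In the injured kidneys the loop of Henle held the largest share, 46.4% in UIR and 38.5% in UUO. Hbegf in frTECs was at 31.6 to 196.8 in control, 64.8 to 106.7 in UIR and 30.5 to 66.0 in UUO. Fibro 2 held it at 34.1 to 94.2 over the injured libraries. Over all cells of a library Hbegf was at 25.1 to 48.4 in control, 40.8 to 47.9 in UIR and 36.2 to 37.7 in UUO. The control range held both injured groups, while every UIR library was above every UUO library.

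Areg encodes amphiregulin, an EGFR ligand, and lies on chromosome 5 (chr5:91139599-91148432, plus strand, mm10) near Ereg (chr5:91074622-91093646) and Btc (chr5:91357261-91402994). The 250 bases before its start (GRCm38.p6, chr5:91139349-91139598, plus strand) are shown as a contrast with Egf, since 3 of the 4 motifs were found in them. Capitals mark, in order, the cAMP response element, the GC box and the TATA box.
Areg: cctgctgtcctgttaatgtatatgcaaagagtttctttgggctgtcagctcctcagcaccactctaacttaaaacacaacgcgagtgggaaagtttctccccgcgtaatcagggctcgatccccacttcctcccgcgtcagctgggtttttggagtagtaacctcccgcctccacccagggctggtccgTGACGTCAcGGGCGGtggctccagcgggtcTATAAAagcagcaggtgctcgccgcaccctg
Of the 7 members with a promoter in the table, the GC box was also found in Egfr and Tgfa, and the TATA box and cAMP response element in no other. The matches are a description and not evidence of binding.

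Few Areg UMIs were counted, 11 over all control cells, 130 in UIR and 126 in UUO. T/NK cells held 63.1% of them in UIR and 80.2% in UUO. In this class the 4 control libraries with enough cells had none, the UIR libraries stood at 14.1, 7.24 and 11.4 CPM and the UUO libraries at 20.5, 2.98 and 15.9. Every injured library was above the controls, and the UIR values lay inside the range of UUO, but the 95 control cells hold few UMIs, and 3 UMIs among them would be 6.73 CPM, more than the value of UUO1. Against that floor, set over the control group, Areg was at least 1.59-fold higher in UIR and at least 1.94-fold higher in UUO. The test called neither (adjusted p = 0.497 and 0.306, with the second under 0.05 without UUO1). Areg passed the filter on low counts there only through the injured libraries, so a level above control was a condition of its being tested. In UIR and UUO, frTECs held 15.4% and 11.9% of the Areg UMIs. Empty droplets held Areg at 6.01 CPM in the Ctrl library, 6.77 in UIR and 8.74 in UUO, against 0 to 0.911 in the other libraries, and UIR and UUO were also the highest T/NK libraries of their groups. Its part in the T/NK values was not tested. Of the 11 Areg UMIs of control kidneys, 10 lay in proximal tubule, in which N1 alone had any.

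Tgfa encodes transforming growth factor alpha, an EGFR ligand. In distal tubule 1 UMI was counted over the 5 control libraries, in N2, while UIR stood at 7.97, 9.03 and 12.1 CPM and UUO at 11.5, 17.7 and 18.7. Both injured groups were above every control. By counting, UIR was 26.0 times control (95% interval 4.45 to 1048) and UUO 44.2 times (7.69 to 1770). Tgfa passed the filter on low counts there only through the injured libraries, so a level above control was a condition of its being tested, and no p is given. Without N2 the controls held no Tgfa UMI. In podocytes Tgfa was at 39.3 to 70.8 in control, 32.8 to 57.4 in UIR and, with 0 in the UUO library of 21 cells, 42.7 and 62.3 in the other two UUO libraries. Endothelial cells were between 4.801 and 11.9 in every library. The podocyte share of Tgfa UMIs was 52.7% in control and 13.3% in UIR.

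Ereg, which encodes epiregulin, a ligand of EGFR and ERBB4, was close to absent, with 1 UMI over all control cells, 18 in UIR and 15 in UUO. Fibro 1, the matrix-producing fibroblast class marked by Col1a1 and Dcn, held 88.9% of them in UIR and 86.7% in UUO. There Ereg was at 3.02, 8.90 and 4.95 CPM in UIR and at 1.46, 9.86 and 0.97 in UUO. The groups overlapped, and with 2 Fibro 1 cells in control no comparison with uninjured kidneys could be made.

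Btc encodes betacellulin, which binds EGFR and ERBB4, and was highest in principal cells, the aquaporin-bearing cells of the collecting duct. It stood at 203, 292, 360 and 331 CPM in Ctrl, N1, N2 and AN1 and at 215 in AN2, against 52.2, 37.0 and 53.5 in UIR. The groups were well apart, with a log2 fold change of -2.595 (SE 0.22, adjusted p = 5.009e-09), or 6.04-fold lower. The class was made up differently in the groups, which was not tested as a source of the difference. Cluster 19, with Btc among its leading genes, held 102 of the 218 control cells and 17 of the 153 UIR cells. In the other cluster, 13, pooled Btc was at 159.8 CPM in 116 control cells and 42.4 in 136 UIR cells, and in cluster 19 at 383 in control. Principal cells held 71.9% of the Btc UMIs of control kidneys and 11.9% in UIR. Btc in loop of Henle was between 4.64 and 9.71 in every library. In distal tubule it was at 1.63 to 11.7 in control, 9.37 to 14.0 in UIR and 12.3 to 13.1 in UUO. Btc passed the filter on low counts there only through the injured libraries. A level above most controls was thus a condition of its being tested, and no p is given. The log2 fold change was 1.09 in UUO (SE 0.44), a narrow call lost on leaving out any library other than AN1 (0.85 to 1.20). In UIR it was 0.96 and not called, but was called without AN1 (1.34).

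Egfr encodes a receptor that these ligands share. In loop of Henle it was at 15.9, 13.9, 10.5, 5.56 and 9.47 CPM in control, at 17.2, 20.6 and 22.2 in UIR and at 24.3, 28.3 and 26.8 in UUO. The 3 groups did not overlap, and UUO passed the test (log2 fold change 1.003, SE 0.27, adjusted p = 0.00513), whereas UIR did not. In distal tubule the controls were at 1.93 to 9.54, UIR at 13.6, 14.6 and 23.6 and UUO at 16.9, 28.5 and 20.1. The log2 fold change there was 1.37 in UIR (SE 0.41) and 1.68 in UUO (SE 0.40). In distal tubule Egfr passed the filter on low counts only through the injured libraries. A level above most controls was thus a condition of its being tested, and no p is given. The call in UIR was lost without UIR2 (1.13) and at a mitochondrial limit of 50% (1.07). Without Ctrl, the highest control, the UIR and UUO values were 2.015 and 2.33. When each cell was named on its own rather than by its cluster, neither distal call passed (0.24 and 0.95). Egfr did not pass in proximal tubule (32.5 to 41.2 in control, 24.9 to 31.9 in UIR), frTECs (40.5 to 105 in control, 46.6 to 62.1 in the injured libraries) or principal cells (38.4 to 62.9 in control, 29.9 to 48.5 in UIR). In Fibro 1 it was between 43.8 and 88.6 over the injured libraries. Proximal tubule held 83.7% of Egfr UMIs in control and 19.6% in UIR.

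Erbb2, the receptor partner with no ligand of its own, rose in distal tubule from 15.5, 19.3, 25.1, 23.3 and 11.4 CPM in control to 45.9, 50.7 and 44.0 in UIR and 40.04, 55.8 and 48.9 in UUO. Control did not overlap the injured libraries. The log2 fold change was 1.01 in UIR (SE 0.23, adjusted p = 0.000965) and 0.99 in UUO (SE 0.23, adjusted p = 0.000875). The UIR call was lost at a mitochondrial limit of 50% (0.61, adjusted p = 0.303). Among loop of Henle cells the controls reached from 8.34 (AN1) to 63.9 and contained nearly all injured libraries (48.5 to 65.7), with no call. In frTECs, Erbb2 was at 7.03 to 19.1 in control, 26.1 to 28.5 in UIR and 24.9 to 33.0 in UUO. UUO passed narrowly (1.12, SE 0.32, adjusted p = 0.047) and was lost on leaving out any library other than UUO2 (0.88 to 1.32), at a mitochondrial limit of 50% (0.72) and with doublets kept (0.66). In the 54 UUO cells of cluster 22, described above, Erbb2 was at 43.2. UIR did not pass (0.97, adjusted p = 0.0883). Nor did principal cells in UIR (0.76, adjusted p = 0.0946).

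Erbb3 encodes a receptor with little kinase activity of its own that signals through its partners. In loop of Henle it was at 38.8, 32.4, 23.5, 19.4 and 37.9 CPM in control, at 47.1, 56.1 and 67.4 in UIR and at 45.8, 60.1 and 55.4 in UUO. The injured libraries lay above all controls. The rise was 0.65 in UIR (SE 0.20, adjusted p = 0.0182) and 0.56 in UUO (SE 0.21, adjusted p = 0.0389). The first call was lost without UIR2 (0.52), AN1 (0.56) or N2 (0.59) and the second without UUO1 (0.48), UUO2 (0.57), AN1 (0.47) or N2 (0.49). In distal tubule 4 controls were at 16.7 to 19.3 and AN1 at 49.6, within the range of the injured libraries (34.7 to 52.1). UUO passed (0.71, SE 0.25, adjusted p = 0.0235) but not without UUO2 (0.68), Ctrl (0.55), AN2 (0.62) or N2 (0.66). UIR did not (0.62, adjusted p = 0.0577) but did without AN1 (0.92) or UIR (0.77), with no filter (0.68), with doublets kept (0.76) and with cells named one by one (0.83). In intercalated cells, the acid- or base-secreting cells of the collecting duct, Erbb3 was at 24.1 to 37.7 in control and 53.9, 79.1 and 63.9 in UUO, a rise of 0.86 (SE 0.20, adjusted p = 0.00244). Within cluster 05, which held most of the UUO cells, pooled Erbb3 was at 30.1 in control, 55.6 in UIR and 70.2 in UUO. UIR, at 43.6 to 63.1, did not pass (0.56, adjusted p = 0.0723). Most Erbb3 UMIs of each control library lay in proximal tubule, 256 to 456 of the 314 to 575 over all cells. The level there was 32.2 to 44.3 CPM in control and 27.3 to 39.1 in UIR. In frTECs Erbb3 was at 31.6 to 71.5 in control and 28.6 to 58.2 in the injured libraries. Neither class gave a call.

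Erbb4, a receptor of Hbegf, Btc, Ereg and the neuregulins, was mostly in loop of Henle, which held 67.8% of its UMIs in control, 86.7% in UIR and 82.0% in UUO. The controls there stood at 224, 190.1, 115, 175 and 151 CPM, UIR at 118, 141 and 129 and UUO at 94.7, 132 and 129.9. N2, at 115, lay among the injured libraries and the other controls above them. Erbb4 fell by 0.63 on the log2 scale in UIR (SE 0.16, adjusted p = 0.00363) and by 0.76 in UUO (SE 0.16, adjusted p = 0.000561). Within cluster 10 the controls were at 112 to 207 and UIR at 148 to 165. In distal tubule Erbb4 went the other way, from 10.7, 7.22, 17.4, 17.5 and 17.9 in control to 22.03, 41.7 and 27.4 in UIR and 38.5, 45.6 and 49.7 in UUO. Neither injury overlapped control. The rise was 1.25 in UUO (SE 0.28, adjusted p = 0.000512) and 0.73 in UIR, just short of the threshold (adjusted p = 0.0508). It passed without UIR (0.92), UIR2 (0.81) or AN2 (0.85), with no filter (0.79) and with only these groups in the fit (0.74).

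**Figure D4:**
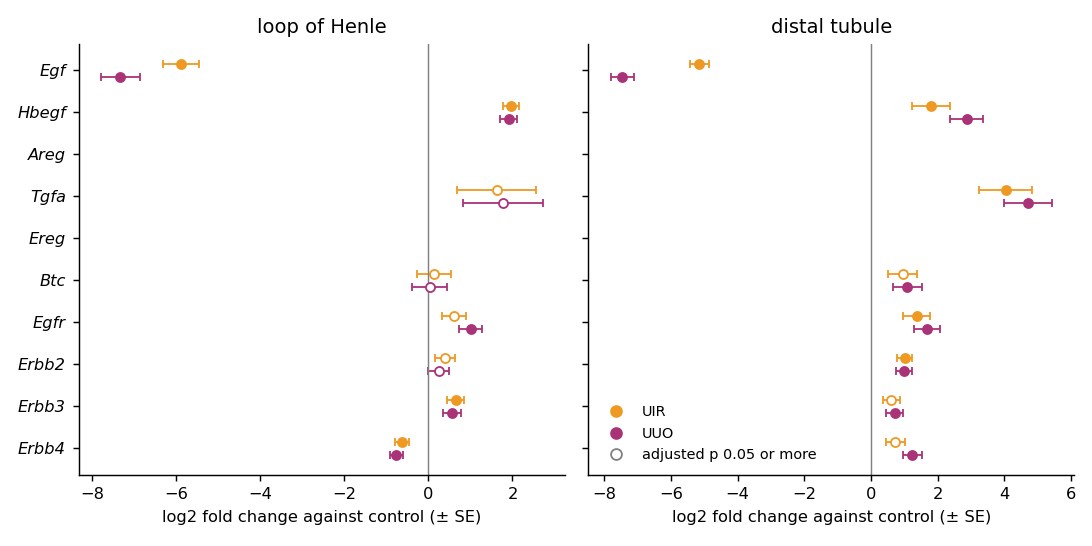
log2 fold change against control (± SE) of each member in loop of Henle and distal tubule for UIR and UUO, with open points at an adjusted p of 0.05 or more and no point for Areg and Ereg, which were below the filter on low counts. Egf was at -5.15 to -7.46, Hbegf, Egfr, Erbb2 and Erbb3 were at or above 0 in both classes, and Erbb4 was below 0 in loop of Henle and above 0 in distal tubule.

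By class, 8 members were tested in loop of Henle and in distal tubule. Of those in loop of Henle, 2 were lower and 2 higher in UIR, against 13.8% and 16.6% of all genes tested there, and 2 lower and 3 higher in UUO, against 16.6% and 20.2%. In distal tubule 1 was lower and 4 were higher in UIR, against 16.9% and 17.5%, and 1 lower and 7 higher in UUO, against 20.7% and 21.8%. The 7 were Hbegf, Tgfa, Btc, Egfr, Erbb2, Erbb3 and Erbb4. In distal tubule Hbegf, Tgfa, Btc and Egfr passed the filter on low counts through the injured libraries and would not have passed through the controls alone (1 control library or none over the 7.70 CPM that 3 libraries had to reach), so the counts of members called higher there are no measure of how many members rose. Erbb2, Erbb3 and Erbb4 would have passed through the controls alone. The comparisons with control share the same control libraries, as do the UIR and UUO columns of every count above. All control distal cells came from cluster 11 and most injured ones from cluster 03. A change within a cell type and a change in the makeup of the class cannot be told apart here.

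For the other genes of the pathway, 51 were listed by role and 48 could be tested in some class. The 5 genes of ligand release were higher in every class in which the test called them. They comprise the ADAM proteases Adam10 and Adam17, the iRhoms Rhbdf1 and Rhbdf2, which carry ADAM17 to the cell surface, and Furin, a proprotein convertase. Over all classes 8 of 49 tests were higher in UIR and 10 of 46 in UUO, and 0 were lower, against 6.27% and 7.81% higher among all genes. At least Rhbdf1 in distal tubule and Rhbdf2 in intercalated cells passed the filter on low counts only through the injured libraries. They could hardly be called lower, so the counts of this role are no measure of how many of its genes rose. At an adjusted p under 0.05, 3 of the 5 were higher in loop of Henle in both injuries (all genes 16.6% and 20.2%), and 3 and 4 in distal tubule (all genes 17.5% and 21.8%). Adam10 in distal tubule rose from 18.6 ± 7.999 CPM in control to 55.55 ± 12.6 in UIR and 84.4 ± 6.97 in UUO (log2 fold changes 1.28, SE 0.25, and 1.82, SE 0.24). Adam17 in loop of Henle rose from 17.1 ± 6.69 to 36.2 ± 4.53 and 39.5 ± 5.595 (0.76, SE 0.24, and 0.87, SE 0.24). Rhbdf1 in distal tubule rose from 2.92 ± 1.79 to 17.4 ± 3.15 and 28.5 ± 9.40 (2.35, SE 0.46, and 3.02, SE 0.43), and Rhbdf2 in intercalated cells from 2.60 ± 1.34 to 10.99 ± 2.11 and 18.2 ± 1.02 (1.88, SE 0.47, and 2.51, SE 0.45). For both, the control mean lay below the filter (7.70 CPM in distal tubule and 13.01 in intercalated cells). A level above control was thus a condition of their being tested.

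Genes that respond to ERK signalling went both ways. Of 11 tested in loop of Henle, 2 were lower and 3 higher in UIR, and 5 lower and 2 higher in UUO. Among all genes of that class 13.8% were lower and 16.6% higher in UIR and 16.6% and 20.2% in UUO. Of 8 in distal tubule, 5 were lower and 2 higher in UIR, and 4 lower and 2 higher in UUO, against 16.9% and 17.5%, and 20.7% and 21.8%, of all genes. Lower in loop of Henle were Ccnd1, which encodes cyclin D1 (-2.12 in UIR and -1.66 in UUO), Ier3, an immediate early gene (-0.94 and -1.58), and, in UUO, Dusp6 (-1.30) and Dusp4 (-0.98), phosphatases of the ERK family, and the transcription factor Etv5 (-1.52). Higher were the immediate early gene Fos in UIR (1.12) and, in both injuries, Myc and Phlda1, for which the controls held 2 and 3 UMIs. By counting, Myc was 9.51 times control in UIR (95% interval 2.605 to 78.9) and 17.8 times in UUO (4.87 to 147), and Phlda1 12.1 times (4.12 to 58.9) and 10.7 times (3.63 to 52.4). In distal tubule most of the called response genes were lower, as counted above. Egr1, an early growth response factor, was at 2.90 ± 5.01 CPM in control, 88.15 ± 68.4 in UIR and 83.5 ± 56.95 in UUO (4.64, SE 0.82, and 4.54, SE 0.83). Egr1 there had a control mean below the filter on low counts (7.70 CPM), as had Myc and Phlda1 in loop of Henle (3.08 CPM). All of these passed it only through the injured libraries, so a level above control was a condition of their being tested. Ccnd1 in intercalated cells was 93.9 ± 36.2 in control and 7.21 ± 3.91 in UUO (-3.845, SE 0.46).

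**Figure D5:**
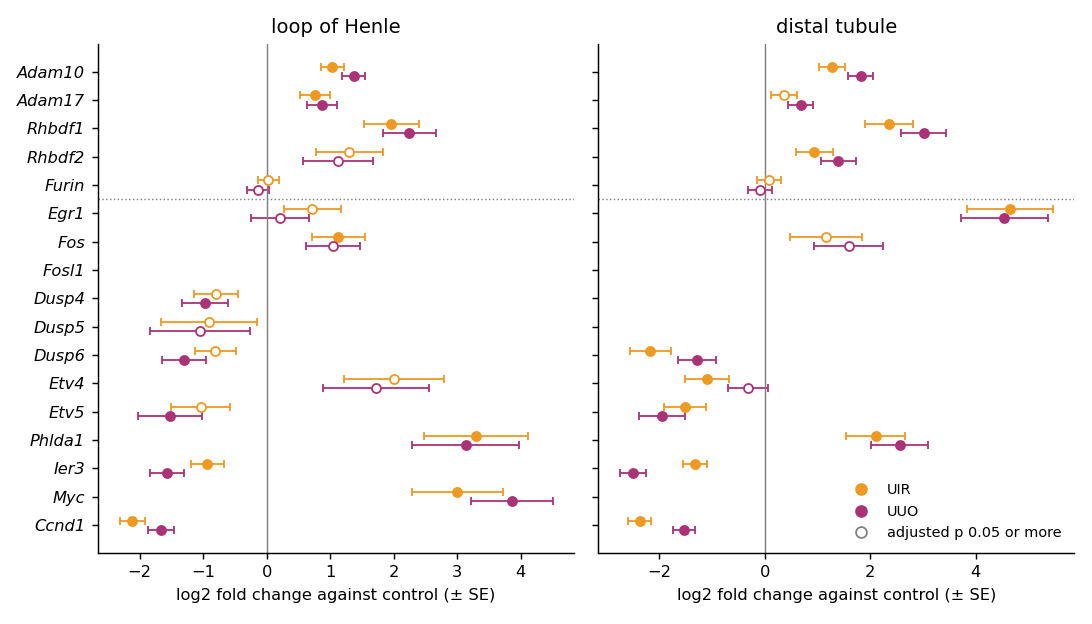
log2 fold change against control (± SE) of the genes of ligand release (above the dotted line) and the response genes (below it) in loop of Henle and distal tubule, with open points at an adjusted p of 0.05 or more and no point for a gene below the filter. Adam10, Rhbdf1 and Phlda1 were higher and Ccnd1 and Ier3 lower in both classes and both injuries. Rhbdf1 in distal tubule and Phlda1 in loop of Henle passed the filter only through the injured libraries.

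Of the inhibitors of the receptors and of the RAS pathway, 0 of 11 were lower and 1 higher in loop of Henle in UIR, and 1 lower and 1 higher in UUO (all genes 13.8% and 16.6%, and 16.6% and 20.2%). Of 10 in distal tubule, 2 were lower and 1 higher in UIR, and 2 lower and 3 higher in UUO (all genes 16.9% and 17.5%, and 20.7% and 21.8%). Spry2, a Sprouty inhibitor, was at 13.2 ± 7.40 CPM in control loop cells and 35.4 ± 4.38 in UIR (1.04, SE 0.32). It was also higher in distal tubule in UUO (0.99), as was Spry1, of the same family (1.13). With a control mean of 4.44 CPM, Spry1 passed the filter on low counts there (7.70) only through the injured libraries. A level above control was thus a condition of its being tested. Errfi1, which binds and inhibits EGFR, fell in proximal tubule from 444 ± 108 to 236 ± 41.3 in UIR (-0.92, SE 0.17) and was lower in distal tubule in both injuries (-0.81 and -0.53), but was higher in Fibro 3 in UUO, at 93.01 ± 23.7 against 14.9 ± 21.1 in 2 control libraries (2.29, SE 0.57). In Fibro 3 it passed the filter of 45.7 CPM only through the injured libraries. Of the 17 transducers, 0 were lower and 3 higher in loop of Henle in UIR and 2 and 3 in UUO, and in distal tubule 3 were lower and 4 higher in UIR and 3 and 3 in UUO, against the same shares of all genes. Stat3 in distal tubule rose from 60.3 ± 11.6 to 189 ± 19.1 in UIR (1.24, SE 0.16), Nras in loop of Henle from 29.98 ± 11.1 to 84.4 ± 5.77 (1.28, SE 0.20) and Mapk3, which encodes ERK1, in intercalated cells from 53.3 ± 7.07 to 155.5 ± 22.7 in UUO (1.24, SE 0.18), while Map2k1, which encodes the ERK kinase MEK1, in distal tubule fell from 46.3 ± 4.93 to 21.1 ± 1.73 in UIR (-1.485, SE 0.19). Of the other ligands of the family only Nrg1 was tested in these segments, without a call.

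Of all 45 listed pathway genes tested in loop of Henle, 2 were lower and 10 higher in UIR, and 8 were lower and 9 higher in UUO. All genes of the class gave 13.8% and 16.6% in UIR and 16.6% and 20.2% in UUO, so the UUO counts were near that share. The median log2 fold change of the list was 0.21 in both, against 0.08 and 0.07 over all genes. Without UUO the lower count in UIR was 4, and without UUO2, Ctrl, N1 or AN1 the lower count in UUO was 5. Of 41 in distal tubule, 10 were lower and 10 higher in UIR, and 9 lower and 12 higher in UUO (all genes 16.9% and 17.5%, and 20.7% and 21.8%), with medians of 0.15 and 0.31 against 0.03 and 0.04.

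Across the 151 pools of a class and a library, the genes whose levels went most closely with those of each member were ranked by Pearson's r on log2 of CPM plus 1. The pools share libraries and depth, so r is a description. For Egf they were Dusp15 (0.82), Gpx6 (0.75) and Ppp1r1a (0.73), for Hbegf Fam171a1 (0.80), Dab2ip (0.79) and Id1 (0.78), and for Tgfa Npnt (0.79), Phactr4 (0.78) and Rad21 (0.78). Areg went with Cd5 (0.66), Izumo1r (0.645) and Cd6 (0.63). Cd5 and Cd6 are lymphocyte genes, and Izumo1r was among the leading genes of a T/NK cluster. Btc went with Tpd52l1 (0.87), Pappa (0.85) and Grb14 (0.84). Among the receptors, Egfr was closest to Bicc1 (0.82), Erbb2 to Pvrl3 and Yap1 (both 0.89) and Erbb4 to Kcnk1 (0.80). Ereg, with 33 UMIs in these pools, was not ranked.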

How the data were processed

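Kidney cells had been profiled by droplet-based single-cell RNA sequencing (10x Genomics, 3′ chemistry) in 11 libraries. The authors deposited raw UMI counts per gene and barcode, made with Cell Ranger 3.1.0 on mm10 per the file headers and the submitters' processing notes. Doublet and ambient RNA removal described in the study was not applied to these counts.

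Barcodes were kept as cells above 0.1 of the UMI count at the 99th percentile among the 3000 deepest barcodes, or from 500 UMIs where they differed from empty droplets (barcode ranks 45000 to 90000, adjusted p under 0.01), with at most 30% mitochondrial and 5% hemoglobin UMIs and at least 200 genes. The 7.5% of cells with the highest simulated-doublet score were removed from each library. Cells were clustered on 2000 variable genes, 40 principal components and 20 neighbours (30 components within compartments) by the Leiden method at resolution 1 (leidenalg 0.10.2). The members, the pathway genes, the markers and mitochondrial genes were kept out of the variable genes. A cluster was named from fixed markers at a score of at least 0.3, or 0.2 with 2 markers among its leading genes, with a gap of at least 0.02 to the second class and at least 3 markers detected. The gap was waived between distal tubule and connecting tubule, which named cluster 03. Clusters led by cell-cycle genes, of low depth with no own marker among the leading genes, or outside the compartment of their class stayed unnamed. This naming rule, with its exceptions, was set after the marker tables had been seen. Free RNA was estimated from empty droplets and from markers of other compartments.

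Counts were summed per class and library (pools of at least 20 cells) and tested with edgeR 4.0.16 (TMM scaling, filterByExpr, quasi-likelihood F test) with the 3 groups in 1 model, and p-values were adjusted by Benjamini-Hochberg over all genes of a class. The SE of a log2 fold change was its size divided by the square root of F. On simulated data drawn from the loop of Henle pools (11355 genes for UIR, 11359 for UUO), 78% and 79% of 100 genes changed 2-fold and 100% of 100 genes changed 4-fold were recovered, and in distal tubule (9737 and 9750 genes) 76% and 72%, and 99% and 96%. False calls numbered 6 and 7 in loop of Henle and 5 and 10 in distal tubule (UIR and UUO). Shares of cells with a UMI were compared by exact two-sided permutation over libraries. Intervals on counts and floors of 3 counts cover counting error only.

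The members and gene lists were chosen with earlier results of these data known. Levels of all 10 members were taken in every class, but the text does not give each of them. A class left unmentioned is thus not one without the gene. Pathway genes were named by rule (up to 4 per role and contrast with an adjusted p under 0.05 and the largest change in any class), and the others named in loop of Henle and distal tubule are those called there. Genes like a member were ranked among genes at 5 CPM or more, for members with at least 200 UMIs. Alternatives were DESeq2 1.42.0, no filter, only the groups compared, a replicate block, each library left out, mitochondrial limits of 15% and 50%, resolution 2, cells named one by one, deeper cells, doublets kept and free RNA subtracted. Library numbers did not pair the samples. Python 3.11.15 and R 4.3.3 were used.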

Additional observations from a re-analysis of the deposited data

Results flagged for a closer look

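In 6 of 56 control groups tested, 1 library stood apart from the others by Dixon's criterion. Chance meets it in about 1 of 20 groups of normally distributed values. That rate does not hold for low counts, so the 6 of 56 cannot be read against it. Egf in T/NK cells was at 64.8 CPM in Ctrl and 0 to 9.64 in the other controls, and Umod in the same pool was at 413. Egf in frTECs was at 229.7 in AN2 against 14.3 to 31.6. Egf in principal cells was at 118.7 in N2 against 10.5 to 28.5, in a pool with Umod at 454 and Slc12a1 at 363. Erbb3 in distal tubule was at 49.6 in AN1 against 16.7 to 19.3. Tgfa in distal tubule was at 1.93 in N2, 1 UMI, and 0 in the others, where any single UMI would meet the criterion. Tgfa in endothelial cells was at 4.801 in N1 against 9.96 to 11.4. What set these libraries apart was not tested.

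Between the injuries 4 results were called, each by the edgeR test of UUO against UIR. Egf was lower in UUO in distal tubule (log2 fold change -2.32, adjusted p = 8.602e-05), loop of Henle (-1.45, adjusted p = 0.03455) and macrophages (-1.75, adjusted p = 0.0318), and Hbegf was higher in distal tubule (1.08, adjusted p = 0.0468). In distal tubule no UIR library overlapped a UUO library for either gene. The Egf calls in loop of Henle and macrophages and the Hbegf call were each lost on leaving out any of several single libraries. In macrophages the libraries overlapped (3.21 to 10.5 CPM in UIR and 0.765 to 3.55 in UUO), and Egf in control was at the level of free RNA there. Fewer calls between the injuries were left with free RNA subtracted.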

How the results depend on the processing

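Of 39 called member results, 23 kept their call under every alternative that gave a value. Over 774 such values 686 kept the call, 88 lost it and 0 changed sign. The 117 results not called passed in 59 of 2176. Egf in podocytes in UIR ranged from -0.115 to 0.071 with libraries left out, changing sign without UIR (0.027) and without N1 (0.071), and was 0.185 with free RNA subtracted, each uncalled.

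Egf against control ranged, with single libraries left out, from -6.14 to -5.69 (UIR) and -8.27 to -6.90 (UUO) in loop of Henle and from -5.51 to -4.90 and -8.14 to -7.17 in distal tubule. At a mitochondrial limit of 50% it was -1.29 in distal tubule in UIR, where only the cluster with the control cells kept its name.

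Member calls against control were, for UIR lower (9), 3 at a mitochondrial limit of 15% and 4 with free RNA subtracted, and for UIR higher (6), 0 at 15%, 3 at 50%, 2 at resolution 2, 10 with cells named one by one and 12 with doublets kept. For UUO lower (8) they were 2 at 15%, 13 with doublets kept and 4 with free RNA subtracted, and for UUO higher (12), 0 at 15% and 5 both at 50% and at resolution 2. Between UUO and UIR the 3 lower calls were 7 with no filter and 1 with only these groups, at 50%, at resolution 2 or with free RNA subtracted (1 to 3 with libraries left out), and the 1 higher call was 0 with DESeq2, at 15%, at 50%, at resolution 2 or with free RNA subtracted, 2 with doublets kept and 0 to 1 with libraries left out. The cause was not tested.

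Pathway genes lower in loop of Henle in UIR (2) were 4 with DESeq2, with only these groups, with the replicate block and with cells named one by one, 7 at 50%, and 2 to 4 with libraries left out. Those higher there (10) were 16 at 50%. In distal tubule in UIR the 10 lower and 10 higher were 0 and 1 at 50%. In loop of Henle in UUO the 8 lower were 5 with no filter and 5 to 8 with libraries left out, and the 9 higher were 14 at 50%.

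The numbers in the library titles did not pair the samples (correlations of same-numbered deviations of 0.11 and 0.0736 in loop of Henle and of -0.0124 and -0.112 in distal tubule), since not every pair was over 0.1. The libraries UIR and UUO, which carry no number, deviated together in every class checked (0.0862 to 0.471), where UUO was the UUO library that correlated best with UIR. With the number as a replicate block, members were 9 lower and 8 higher in UIR and 8 lower and 10 higher in UUO. The block passed Egf in connecting tubule (-1.31) and Erbb4 (0.75) and Erbb3 (0.63) in distal tubule in UIR, and lost Egf in frTECs in UIR (-3.04) and, in UUO, Btc in distal tubule (1.10) and Erbb2 in frTECs (1.10). At 15% too few control pools were left for loop of Henle and distal tubule, so Egf and its share of cells had no value there. At resolution 2 distal tubule had no injured pools. Low control cell numbers and free RNA limit the smaller classes.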
